A study of Drosophila melanogaster with 12 samples.

Results

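The sperm chromatin and tail genes of *Drosophila melanogaster* described here are 10 genes of late spermatogenesis: *Mst35Ba*, *Mst35Bb*, *Mst77F*, *Mst84Da*, *Mst84Db*, *Mst87F*, *Mst98Ca*, *Mst98Cb*, *dj* and *djl*. They were picked by name from the 16997 genes in each of the 2 deposited tables. The tables list 8 of the 10 under these symbols, and list *Mst35Ba* and *Mst35Bb* under their current names *ProtA* and *ProtB*, which RefSeq gives as synonyms. RNA came from whole flies 1 day old, frozen 10 to a sample, with 4 samples each of Ub6-GG flies, Ub6-Stop flies and Control flies. The Ub6 flies carried 1 copy of a transgene for a linear chain of ubiquitin units that cannot be taken apart, inserted at Attp40, which in Ub6-GG ends in the motif needed to attach the chain to other proteins and in Ub6-Stop lacks it. All 3 groups, Control flies included, carried the sqh-Gal4 driver, which expresses the transgene in all tissues and at all stages, and Control flies shared the background but had no Ub6 transgene. The sex of the flies is not given in the sources used here.

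In the fly testis, most genes of the sperm head and tail are transcribed in primary spermatocytes, and many of their mRNAs are stored and translated only after meiosis. In the elongating spermatid, histones are first exchanged for transition proteins and then for protamines, which pack the DNA of the sperm head. The tail is built around a long axoneme, the microtubule core, and a pair of fused mitochondrial derivatives. In the *Mst(3)CGP* family, to which the *Mst84D*, *Mst87F* and *Mst98C* genes belong, the proteins are rich in repeats of cysteine, glycine and proline and form part of the tail. Because these transcripts come from the testis, a level in whole flies reflects both the number of germ cells and the RNA in each of them, and fewer cells cannot be told apart from less RNA per cell.

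The value analysed is the authors' mean log2 CPM of each gene (CPM, the read count scaled to the size of its library, on a log2 scale), taken over all 12 libraries together. The tables hold 0 columns of values per sample, and this mean is the same in both tables for every gene. It gives no level for Ub6-GG, Ub6-Stop or Control flies separately, so it has no spread between samples, and no comparison of a Ub6 genotype with Control was made here. Reads were primed from the poly(A) tail and come from the 3′ end of each transcript, so levels of different genes were compared without a correction for length. Other differences between genes, such as the annotated 3′ end or how uniquely reads map, were not tested. The depth was recovered from the low end of the same values: 2186 genes without a read share 1 lowest level, and genes with a single read take 12 distinct levels, 1 per library. The recovered library sizes ran from 1055224 to 2366713 reads (median 1680809), 20213076 in all. Any normalization factor that the authors applied to a library is contained in its recovered size. These sizes therefore need not equal the reads that were counted. Levels in CPM below are given with the prior count of the authors' tool taken off, and their 95% intervals are exact Poisson intervals on the recovered reads. These intervals cover counting error only.

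As a group the 10 genes were abundant transcripts of the whole fly. Their median was 6.96 mean log2 CPM, against 2.64 over all genes, and together they made up 1522 CPM. Of the 10, 7 lay above the 90th percentile of all genes, a mean log2 CPM of 6.19, and 9 lay above the median of all genes. *Mst84Da* was the exception, below the median. From the highest to the lowest member the levels spanned 7.34 on the log2 scale. For scale, *RpL32*, a ribosomal protein gene, stood at 2345 CPM, *Act5C*, an actin gene, at 1057 CPM and *sqh*, whose promoter drives Gal4 in all samples, at 117.6 CPM. *Mst84Db* thus reached 20.6% of the *RpL32* level, and *Mst84Da* reached 0.0770% of it.

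**Figure D1:**
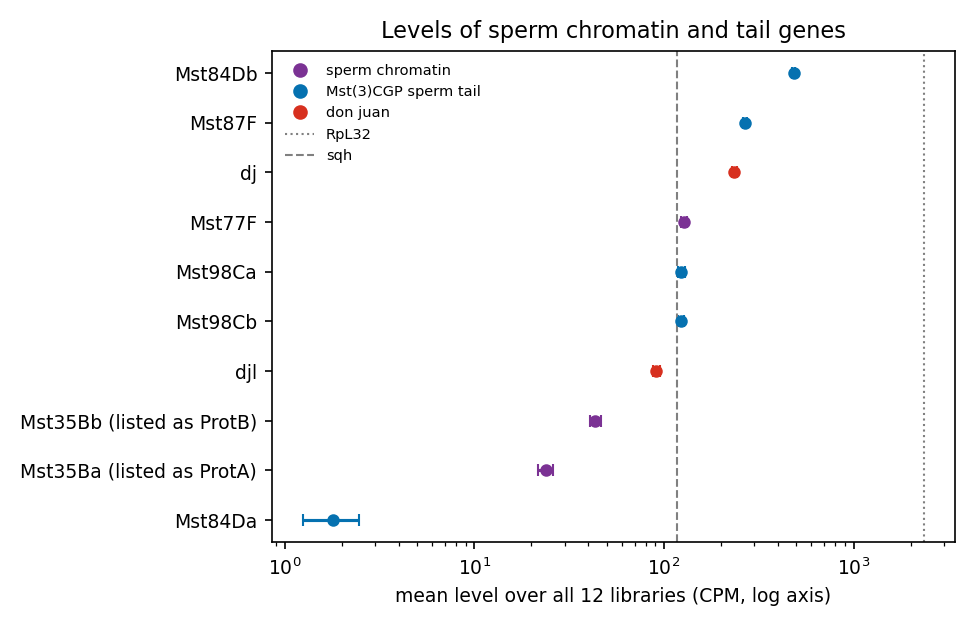
Mean level of each of the 10 genes over all 12 libraries, in CPM on a log axis, coloured by role, with exact Poisson 95% intervals that cover counting error only; vertical lines mark *RpL32* and *sqh*. The points run from 484.2 CPM for *Mst84Db* to 1.81 CPM for *Mst84Da*, and 6 of the 10 lie to the right of *sqh*.

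Among the sperm chromatin genes, the linker-histone-like *Mst77F* was more abundant than either protamine gene. *Mst77F*, whose protein shapes the sperm nucleus and is needed for male fertility, had a mean log2 CPM of 7.01, or 128.1 CPM (interval 123.2 to 133.1 CPM), higher than 93.9% of all genes. *Mst35Bb*, which encodes protamine B, had a mean log2 CPM of 5.48 and a level of 43.3 CPM (interval 40.5 to 46.3 CPM). *Mst35Ba*, which encodes protamine A, had a mean log2 CPM of 4.64 and a level of 23.8 CPM (interval 21.7 to 26.0 CPM). The protamine genes are adjacent and transcribed in the same direction, with 448 bases between them, yet *Mst35Bb* was 1.82-fold higher than *Mst35Ba*, and their counting intervals were apart. *Mst77F* was 2.95-fold higher than *Mst35Bb* and 5.39-fold higher than *Mst35Ba*. The 3 genes summed to 195.2 CPM, 12.8% of the level of all 10.

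*Mst77F* has close relatives on the Y chromosome, the *Mst77Y* genes, so its reads could in principle be split among copies. The tables list 4 of them. *Mst77Y-4*, *Mst77Y-7* and *Mst77Y-13* were without a read in any of the 12 libraries, and *Mst77Y-9* had 1 read, against 2588 recovered reads for *Mst77F*. Reads that matched several copies equally may have been dropped before counting, and the rule used for such reads is not given in the sources used here. The protamine genes are also close copies of each other, so the same limit holds for their separate levels. Sequences were not compared here. Whether this limit also holds among the *Mst84D* genes, the *Mst98C* pair and the don juan pair was not tested.

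The sperm tail genes of the *Mst(3)CGP* family held both the highest and the lowest level of the 10. *Mst84Db* led with a mean log2 CPM of 8.92, or 484.2 CPM (interval 474.6 to 493.9 CPM), and only 320 of all genes stood above it. *Mst87F* followed at 8.07 mean log2 CPM, 267.7 CPM (interval 260.6 to 274.9 CPM), so that *Mst84Db* was 1.81-fold higher. Both encode very short cysteine-rich proteins, of 74 residues for *Mst84Db* and 56 for *Mst87F* in the annotation. *Mst98Ca* and *Mst98Cb* encode longer members, of 334 and 265 residues, each from a single exon. Their levels were indistinguishable at this depth, with 6.96 mean log2 CPM for each, 123.6 CPM for *Mst98Ca* (interval 118.8 to 128.5 CPM) and 123.4 CPM for *Mst98Cb* (interval 118.6 to 128.3 CPM). The 5 genes summed to 1001 CPM, 65.7% of the level of all 10.

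*Mst84Da*, the fifth gene of the family, had a mean log2 CPM of 1.58, which is 1.81 CPM (interval 1.25 to 2.47 CPM) or about 36 reads over all 12 libraries. *Mst84Db*, its neighbour at 222 bases, was 268.2-fold higher. The other genes of the same cluster, *Mst84Dc* and *Mst84Dd*, are not among the 10 and stood at 155.1 and 197.5 CPM, 85.9-fold and 109.4-fold above *Mst84Da*. In the cluster *Mst84Dd*, *Mst84Dc* and *Mst84Db* lie on one strand and *Mst84Da* on the other. In the release 6 annotation, exons of *MstProx*, a gene on the opposite strand, cover 269 of the 358 exonic bases of *Mst84Da*, and all 83 bases of its 3′ UTR. Reads of this kind of library come from the 3′ end of a transcript, but may also fall upstream of so short a 3′ UTR. *MstProx* itself had 1 read over all 12 libraries. No other member shared more than 6.58% of its exonic bases with an overlapping gene, the value of *Mst87F* with *lncRNA:CR43300*, and *Mst77F* lies within the span of *Pka-R1* without sharing an exonic base. The authors aligned to an older build (dm3), whose gene models may differ, and whether strand was used in counting is not given in the sources used here. The part of the overlap in the low value of *Mst84Da* was not tested.

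**Figure D2:**
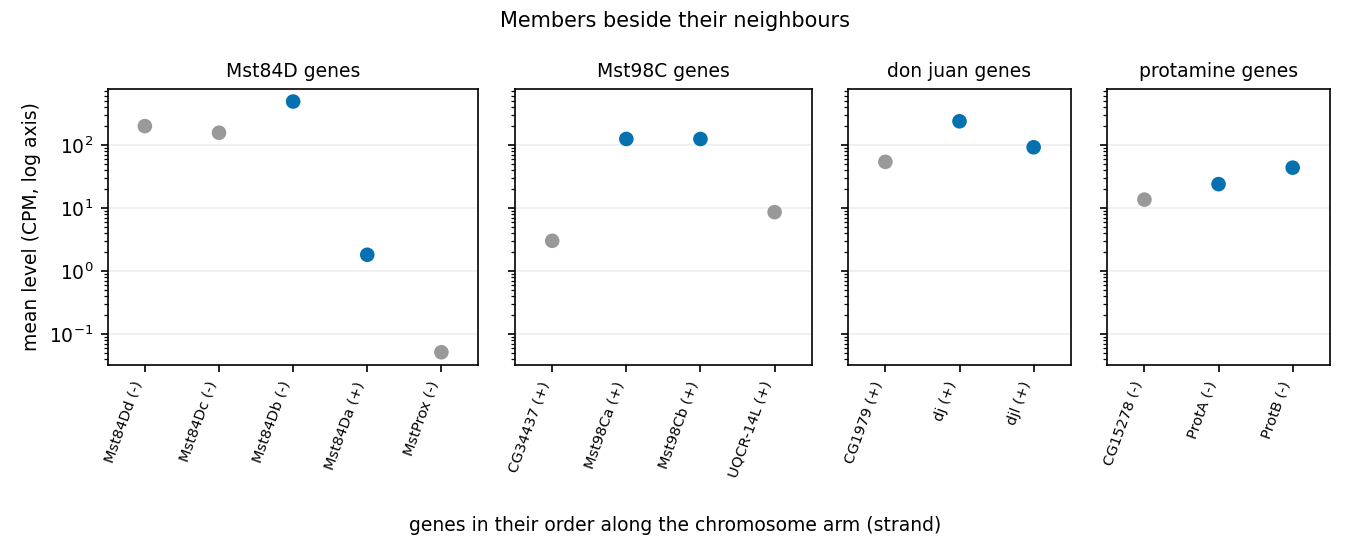
Mean level in CPM (log axis) of members (blue) and of neighbouring genes that are not members (grey), in their order along the chromosome arm for 4 neighbourhoods, with the strand in brackets. *Mst84Da* lies at 1.81 CPM beside *Mst84Db* at 484.2 CPM, and *Mst98Ca* and *Mst98Cb* lie level with each other and above both of their neighbours.

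The don juan genes were both abundant, with *dj* the higher of the pair. *dj*, which encodes a basic protein of the sperm head and of the mitochondrial derivatives along the tail, had a mean log2 CPM of 7.89 and a level of 235.4 CPM (interval 228.8 to 242.2 CPM), above 96.7% of all genes. *djl*, its adjacent relative on the same strand at 242 bases, had a mean log2 CPM of 6.53 and a level of 91.2 CPM (interval 87.1 to 95.5 CPM). *dj* was therefore 2.58-fold higher than *djl*. Together they held 326.6 CPM, 21.5% of the level of all 10, more than the 195.2 CPM of the chromatin genes.

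Ordered by level, the 10 genes ran *Mst84Db*, *Mst87F*, *dj*, *Mst77F*, *Mst98Ca*, *Mst98Cb*, *djl*, *Mst35Bb*, *Mst35Ba* and *Mst84Da*. Of the chromatin genes, only *Mst77F* stood among the abundant tail genes, and both protamine genes stood below every tail and don juan gene except *Mst84Da*. Counting intervals overlapped for *Mst77F* with *Mst98Ca* (1.04-fold) and for *Mst98Ca* with *Mst98Cb*, and for no other neighbours in the order. *Mst87F* and *dj* were close as well, at 1.14-fold, with intervals that did not meet. The largest step was the 13.2-fold one between *Mst35Ba* and *Mst84Da*. Since the spread between samples is not in these values, the order describes this set of 12 libraries.

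**Figure D3:**
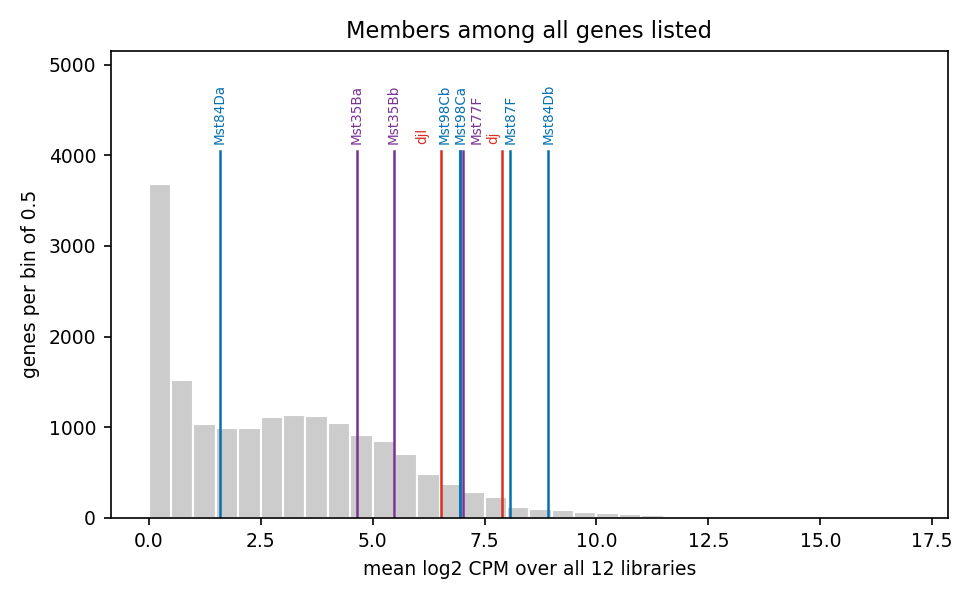
Number of genes in bins of 0.5 mean log2 CPM over all 16997 genes (grey), with a line for each of the 10 genes coloured by role (purple for sperm chromatin, blue for *Mst(3)CGP* sperm tail, red for don juan). A total of 9 of the lines stand above the median of all genes at 2.64, and *Mst84Da* stands at 1.58.

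By their gene models the 10 are compact. In the release 6 annotation 7 lie on chromosome arm 3R, *Mst35Ba* and *Mst35Bb* on 2L and *Mst77F* on 3L. Their transcripts measured between 358 bases (*Mst84Da*) and 1319 bases (*Mst98Ca*), with at most 3 exons, and their 3′ UTRs between 79 bases (*Mst35Ba*) and 322 bases (*dj*). Of the 10, 8 sit beside another of the 10: the protamine pair, *Mst84Da* with *Mst84Db*, *dj* with *djl*, and *Mst98Ca* with *Mst98Cb*, the last pair 141 bases apart. High levels did not extend to all adjacent genes. *UQCR-14L*, 184 bases beyond *Mst98Cb* on the same strand, stood at 8.55 CPM. *CG34437*, 6612 bases away on the other side of *Mst98Ca*, stood at 3.00 CPM. By contrast, *CG1979*, 643 bases from *dj* on the same strand, stood at 53.6 CPM, higher than 87.0% of all genes.

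The 10 genes were next set beside 48 other genes of spermatogenesis that the tables list. Of the 48, 42 were below the median of the 10, and their own median was 2.99 mean log2 CPM, close to the 2.64 of all genes. The 6 above it were *ocn* (7.87 mean log2 CPM), *Mst84Dd* (7.63), *loopin-1* (7.60), *betaTub85D* (7.45), *Mst84Dc* (7.29) and *w-cup* (7.09). Of these, *betaTub85D* encodes the testis-specific beta-tubulin of the axoneme and *loopin-1* a protein of the sperm mitochondrial derivatives. None of the 48 reached *Mst84Db* or *Mst87F*.

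The other 5 sperm chromatin genes were all below the median of the 10, with a median of 4.44 mean log2 CPM, between 3.80 for *Prtl99C*, a protamine-like gene, and 5.42 for *tHMG2*. Of these, *tHMG2* and *Tpl94D* (5.10) lay between *Mst35Ba* and *Mst35Bb*, and *tHMG1* (4.44), *Mst33A* (4.18) and *Prtl99C* lay below both. The transition protein gene *Tpl94D*, whose protein occupies spermatid chromatin between histones and protamines, stood at 33.1 CPM, between *Mst35Bb* at 43.3 and *Mst35Ba* at 23.8 CPM. The list drawn up for sperm tail and mitochondrial derivative genes ranged widely. Its 14 genes had a median of 3.47 mean log2 CPM, between 0.84 for *Mst89B* and 7.87 for *ocn*. The list was made by gene name, and a tail role was not checked for each gene, *ocn* and *janB* included. The axonemal dynein genes of the Y chromosome, *kl-2*, *kl-3* and *kl-5*, were at 1.01, 1.05 and 1.34 CPM, beside *Mst84Da* at 1.81 CPM. The value of *kl-5* lies within the counting interval of *Mst84Da* (1.25 to 2.47 CPM). How completely the authors' build (dm3) holds these Y genes was not checked, and its part in their low levels was not tested. The 16 genes that are transcribed after meiosis had a median of 2.99 mean log2 CPM, from 1.55 for *s-cup* to 7.09 for *w-cup*, the only one of them above the median of the 10. The lowest list was that of the meiotic arrest genes, which are needed for spermatocytes to transcribe many late genes and to enter meiosis. Its 11 listed genes had a median of 1.42, from 0.36 for *tomb* to 3.11 for *achi*, and *aly* had 1.49 CPM, against 43.3 CPM for *Mst35Bb*.

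**Figure D4:**
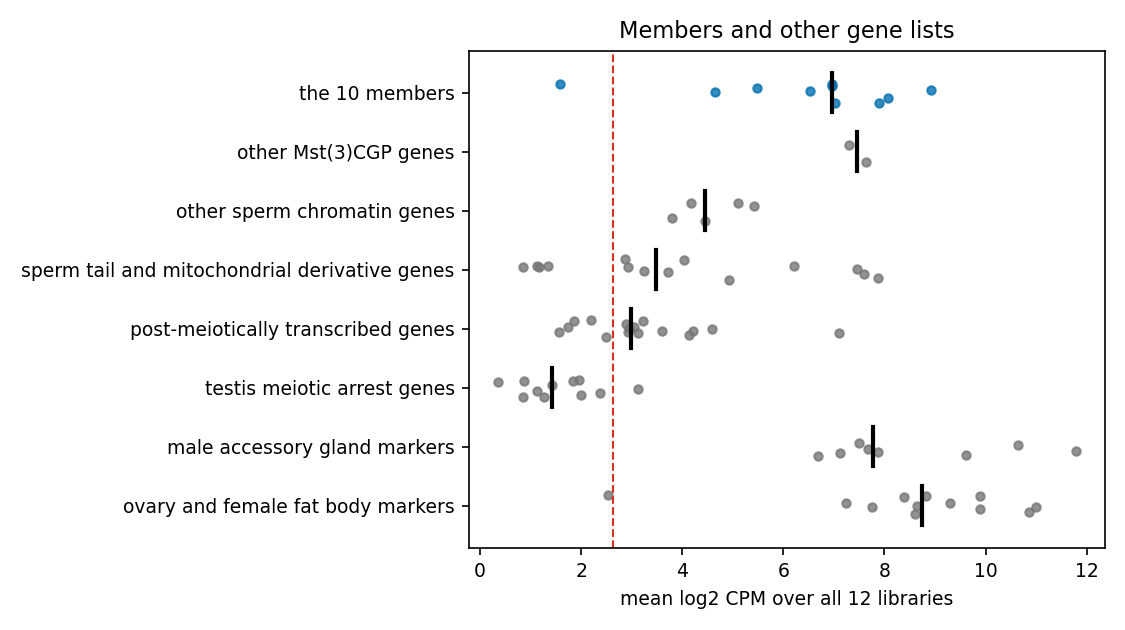
Mean log2 CPM of the 10 genes (blue) and of the genes of 7 other lists (grey), with a black bar at the median of each list and a dashed line at the median of all genes, 2.64. The median of the 10 is 6.96, above the medians of 4.44, 3.47, 2.99 and 1.42 of the chromatin, tail, post-meiotic and meiotic arrest lists. It lies below the medians of the other *Mst(3)CGP* genes (7.46), the accessory gland markers (7.77) and the ovary and female fat body markers (8.74).

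Transcripts of male and of female reproductive tissue were both present in the pooled values. All 8 accessory gland markers were above the 90th percentile of all genes, with a median of 7.77 mean log2 CPM, from 6.68 for *Acp36DE* to 11.79 for *Mst57Db*. Of 12 ovary and female fat body markers 11 were, with a median of 8.74, from 2.54 for *nos* to 10.99 for *Cp15*. The share of males in the samples of each genotype is not given in the sources used here, and its part in the levels of the 10 genes was not tested.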

How the data were processed

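Total RNA of 12 samples, 4 per group by the genotype labels, was made into 3′ libraries by the authors with a poly(A)-primed QuantSeq kit and sequenced in 50 bp reads. The authors demultiplexed with CASAVA 1.8.2, aligned to dm3 with STAR, tabulated reads per gene and fitted them in edgeR. The 2 deposited tables hold the authors' mean log2 CPM per gene over all libraries, which is used here, and the log2 fold change, likelihood ratio, p-value and FDR of the authors' own comparisons with control, which are not used. The group means and the test between genotypes that need those columns, or values per sample, were not analysed here.

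The mean library size follows from the level of genes without reads and a prior count of 2, the default of the authors' tool, which is assumed. The 12 sizes and a common dispersion (0.146) were solved from genes with 1 read. Solving was tested only on data simulated with the same model and prior count, so that test cannot check these assumptions. Reads per gene are approximate where libraries differ. Percentiles count the genes with a lower mean log2 CPM. Gene models, strands and neighbours come from the release 6 annotation, whose build is not that of the authors, so no coordinates are given. Neighbours are the nearest genes that the tables list under the annotation's symbol. Protein and promoter sequences planned for description were not used here. Members and lists were chosen with earlier results of these data known. All 10 members are named, as are both remaining *Mst(3)CGP* genes, the ends of each list and 3 widely expressed genes, and other genes were named after their values were seen. *rye* was not matched under that name. Computation used Python 3.11.15, numpy 2.4.6, scipy 1.17.1, pandas 2.3.3 and matplotlib 3.10.9.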

Additional observations from a re-analysis of the deposited data

How the results depend on the processing

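The mean log2 CPM of all 10 genes was identical in both tables. Taking the prior count off subtracts the same amount of CPM from every gene, so it cannot change their order. It moved the log2 level of *Mst84Da* from 1.58 to 0.85, and that of the other 9 by at most 0.07. Among the 11797 genes above a mean log2 CPM of 1, *Mst84Db* ranked at the 97.3rd percentile, *Mst35Ba* at the 65.2nd and *Mst84Da* at the 10.2nd, in place of 98.1, 75.8 and 37.7 among all genes. The median of the *Mst(3)CGP* genes was 6.96 mean log2 CPM, 7.52 when *Mst84Da* was left out and 7.29 when *Mst84Dc* and *Mst84Dd* were added, both chosen after seeing the data. No paired analysis was possible because the values come from no test and the tables carry no value per sample, and no replicate could be left out for the same reason. Other settings for protein composition and promoter words were not run.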
